A study of Mus musculus with 6 samples.

Results

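The 10 genes described here move lipid into, within and out of cells, and were measured across 6 RNA-seq libraries of transformed mouse pro-B cells. They are Apoe, Lpl, Cd36, Fabp4, Fabp5, Plin2, Abca1, Abcg1, Nr1h3 and Pparg, chosen by symbol as genes linked to LXR and PPARγ in macrophages, and all 10 were found among the 22098 gene symbols of the RPKM table. The cells were C57BL/6 bone marrow transduced at day 0 with a retrovirus carrying BCR-ABL p185, the kinase made by the Philadelphia translocation, with an IRES-YFP reporter. The marrow was Ikaros_ZnF1-/- (ZnF1 mutant), Ikaros_ZnF4-/- (ZnF4 mutant) or wt (wild type). Ikaros (Ikzf1) is a DNA-binding regulator of lymphoid differentiation with several zinc fingers, and the mutants concern the first and the fourth finger of its DNA-binding domain. Libraries came from day 28 and day 21 in vitro, 1 for each day and genotype, so n = 2 per genotype. All groups carry the oncogene. The labels describe the cells as transformed proB-ALL but state that whole marrow was transduced, and they name no sort.

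Macrophages take up lipoproteins and fatty acids through receptors and lipases, store the surplus as droplets, and return cholesterol to the outside through ABC transporters. Oxysterols activate LXR and fatty acid derivatives activate PPARγ, and both receptors pair with RXR on direct repeats of the motif AGGTCA to switch on uptake, storage and efflux genes. Most of these genes are known from macrophages and adipocytes rather than from B-cell precursors.

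The promoters below are shown as examples of an exporter (Abca1), a droplet coat gene (Plin2) and an uptake receptor (Cd36). Each holds a match to a direct repeat or to the Ikaros core, as do windows of Nr1h3, Pparg and Apoe, so that a match does not set these 3 apart. They run 5′ to 3′ on the gene's own strand, from 250 bases before the RefSeq start to 50 bases from it on, in build GRCm38.p6, whereas the expression values were made on mm9. The Abca1 window is chr4:53159846-53160145, the Plin2 window chr4:86670010-86670309 and the Cd36 window chr5:17835847-17836146, all on the minus strand. Capitals mark the matches.
Abca1: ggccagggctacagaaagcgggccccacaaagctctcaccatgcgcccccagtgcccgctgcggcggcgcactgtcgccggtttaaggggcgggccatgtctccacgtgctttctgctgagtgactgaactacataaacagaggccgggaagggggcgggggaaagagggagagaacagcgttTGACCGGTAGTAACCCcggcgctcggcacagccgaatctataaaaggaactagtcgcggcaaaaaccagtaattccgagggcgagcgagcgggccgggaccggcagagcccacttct
Plin2: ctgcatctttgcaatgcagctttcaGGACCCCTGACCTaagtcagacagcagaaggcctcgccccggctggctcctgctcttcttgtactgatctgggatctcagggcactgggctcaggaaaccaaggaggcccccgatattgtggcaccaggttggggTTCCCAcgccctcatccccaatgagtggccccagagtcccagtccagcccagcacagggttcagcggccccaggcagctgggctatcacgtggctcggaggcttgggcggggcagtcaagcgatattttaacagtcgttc
Cd36: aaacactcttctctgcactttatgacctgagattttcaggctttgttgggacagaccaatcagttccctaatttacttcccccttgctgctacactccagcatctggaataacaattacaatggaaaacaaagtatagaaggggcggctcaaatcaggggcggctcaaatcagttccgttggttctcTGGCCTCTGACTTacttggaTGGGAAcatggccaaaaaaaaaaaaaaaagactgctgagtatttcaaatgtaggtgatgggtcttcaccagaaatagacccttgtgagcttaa

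In Abca1 the capitals are a match to DR4 (AGGTCA, then 4 bases of any kind, then AGGTCA again, the spacing LXR prefers), read on the other strand and beginning 67 bases before the start, with 9 of 12 fixed letters matched. In Plin2 and Cd36 the longer runs are matches to DR1 (AGGTCA, then 1 base of any kind, then AGGTCA again, the spacing PPARγ prefers), 225 and 63 bases before the start, each with 10 of 12 fixed letters matched. The shorter runs in Plin2 and Cd36 are exact copies of TGGGAA, a core that Ikaros binds (in Plin2 on the other strand, as TTCCCA), 90 and 43 bases before the start, and they do not overlap the DR1 matches. Both strands were searched. Windows were at hand for 6 of the 10 genes (11 windows). Lpl, Abcg1, Fabp4 and Fabp5 had none. DR4 with up to 3 mismatches was present in 2 of the 11 windows (Abca1 and Pparg) and in 21.88% of all 32851 mouse windows. DR1 with up to 2 mismatches was present in 2 of 11, against 3.86% of all windows, and TGGGAA in 6 of 11, against 25.56%. Several windows of a gene overlap, so the 11 are not independent. A match is a string of letters and no measure of binding.

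Paired values of a genotype are those of its day 28 and its day 21 library. The read depth of the libraries is unknown, and between 10401 and 11233 symbols reached 1 RPKM in a library. Ikzf1, the mutated gene, stood at 91.4 and 108 RPKM in the ZnF1 mutant and 165.9 and 186 RPKM in the ZnF4 mutant, against 78.7 and 89.2 RPKM in wild type. These are values of a whole transcript and cannot check the loss of 1 finger. B-lineage markers (10 genes, among them Pax5 and Igll1) summed to between 2525.5 and 3047.6 RPKM in every library, with Igll1 alone at up to 1124.8 RPKM. A difference is given in log2(RPKM + 1) units ± its standard error, and comes from 1 limma model of all 6 libraries with terms for genotype and day. A gene is called where its Benjamini-Hochberg adjusted p, taken over all 11379 tested genes, is below 0.05. Against wild type, 1 of the 10 B-lineage markers was called higher in the ZnF1 mutant (Rag1) and 3 in the ZnF4 mutant (Rag1, Igll1 and Vpreb2). None was called lower, and of all tested genes 22.9% and 10.9% were called higher. Each of these calls ended on leaving out either wild type library.

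Most of the 10 genes were several times higher in the ZnF1 mutant than in wild type. Of the 10, 8 were called higher and none lower, where 38.1% of all tested genes were called in either direction, 22.9% higher and 15.2% lower. The exceptions were Abcg1 and Fabp5. The median difference over the 10 genes was 2.28, against -0.02 over all tested genes. In the ZnF4 mutant against wild type 1 of the 10 was called (Apoe, lower), where 18.2% of all tested genes were called, 10.9% higher and 7.32% lower, and the median difference was -0.24 against 0.02 over all tested genes. These comparisons share the wild type libraries. Between the mutants, ZnF4 minus ZnF1, 8 of the 10 were called lower, where 45.5% of all tested genes were called and 23.2% were lower, and the median was -2.38 against 0.03. With quantile scaling, the median over all tested genes was -0.12 in the ZnF1 mutant against wild type (-0.02 as deposited), and 1986 genes were called higher and 2888 lower there, against 2606 and 1730 as deposited. Between the mutants that median was 0.12 (0.03 as deposited), with 3406 genes higher and 2293 lower, against 2540 and 2637 as deposited. The counts for the 10 genes did not change with it. Summed over the 10 genes, the levels were 660.7 and 724.5 RPKM in the ZnF1 mutant and 79.3 and 102.6 RPKM in the ZnF4 mutant, against 102.4 and 153.8 RPKM in wild type.

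Within a genotype the order of the levels per length was not always resolved. In the ZnF1 mutant Apoe led with a mean of 218.95 RPKM, but its range held both Lpl values (mean 200.05 RPKM), followed without overlap by Cd36 (146.55 RPKM), Plin2 (68.85 RPKM), Abca1, Abcg1, Fabp4, Pparg, Nr1h3 and Fabp5. In the ZnF4 mutant Cd36 led with 24.5 RPKM, and the ranges of Cd36, Lpl and Abcg1 overlapped. In wild type Apoe led with 40.2 RPKM and overlapped with Lpl, and Lpl, Plin2, Abcg1 and Cd36 overlapped in turn.

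**Figure D1:**
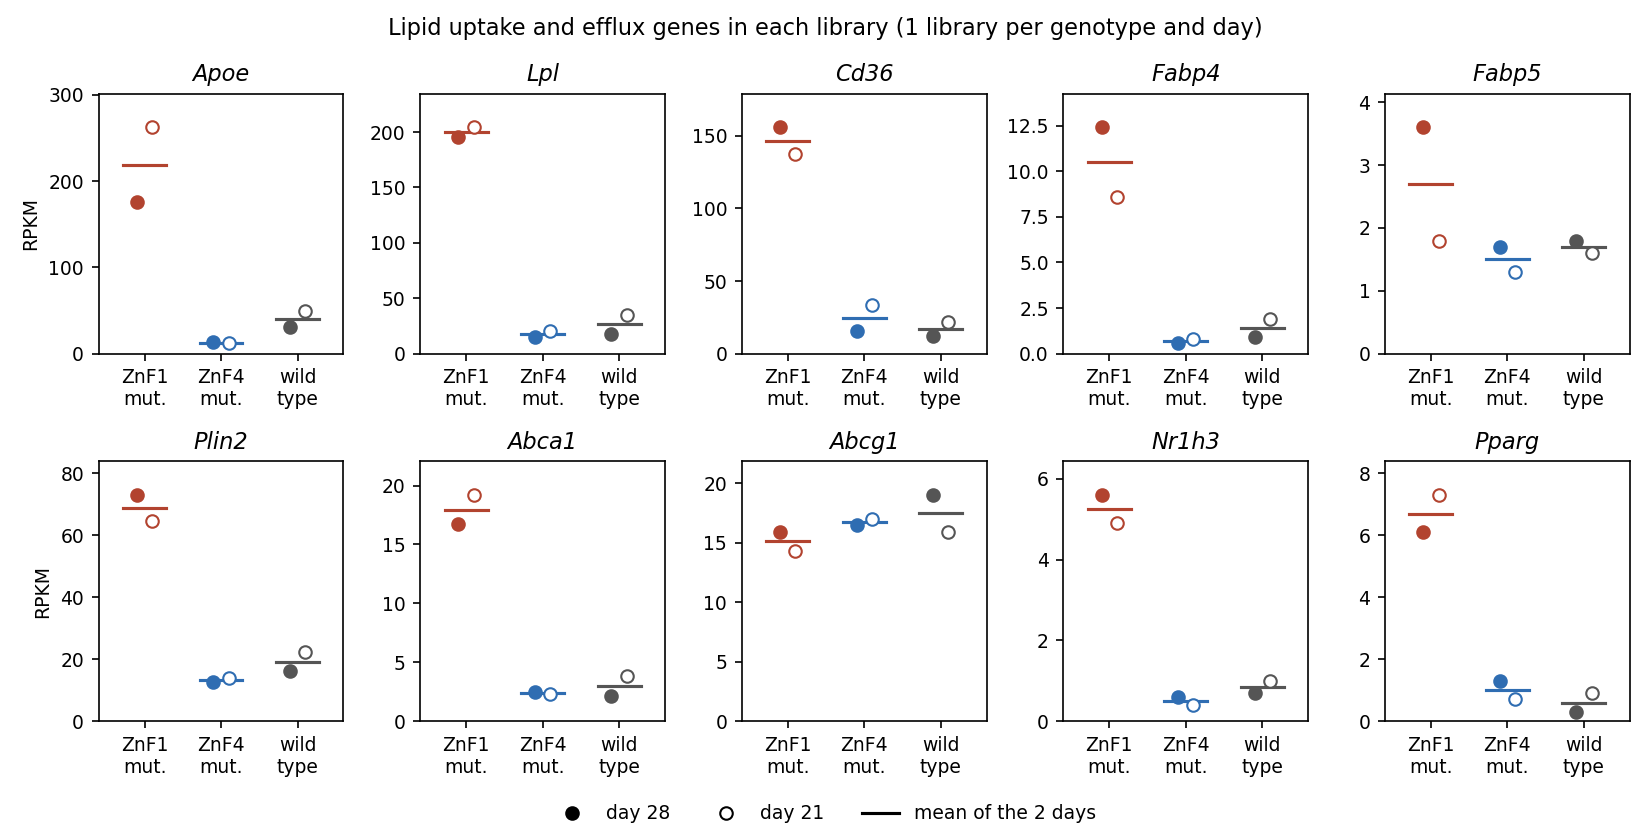
Level of each of the 10 genes in RPKM (vertical axes, each from 0) in the ZnF1 mutant, the ZnF4 mutant and wild type, with filled points for day 28, open points for day 21 and a bar for the mean of both days. In the Lpl panel both ZnF1 points, at 195.9 and 204.2 RPKM, stand above all others, while Abcg1 and Fabp5 do not show that pattern. The share of all tested genes with such a separation was not computed.

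Apoe encodes apolipoprotein E, which macrophages secrete and which carries cholesterol in lipoproteins. It had 175.7 and 262.2 RPKM in the ZnF1 mutant and 13.0 and 12.2 RPKM in the ZnF4 mutant, against 31.4 and 49.0 RPKM in wild type. The genotypes did not overlap, with the ZnF1 mutant highest and the ZnF4 mutant lowest. The ZnF1 mutant was higher than wild type by 2.42 ± 0.18 (limma, adjusted p = 0.00122), a ratio of mean RPKM of 5.45. The ZnF4 mutant was lower than wild type by -1.57 ± 0.18 (limma, adjusted p = 0.00595), with -1.21 at day 28 and -1.92 at day 21 and a ratio of 0.313. That call ended when wild type day 28 was left out (adjusted p = 0.0557), when wild type day 21 was left out (adjusted p = 0.0857) and with no filter on low values (adjusted p = 0.0624). Apoe was the only one of the 10 genes called between the ZnF4 mutant and wild type with all 6 libraries, and it also had the lowest ZnF4 minus ZnF1 difference of the 10, -3.99 ± 0.18.

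Lpl encodes lipoprotein lipase, which frees fatty acids from the triglycerides of lipoproteins. Its levels were 195.9 and 204.2 RPKM in the ZnF1 mutant and 15 and 20.4 RPKM in the ZnF4 mutant, against 18.1 and 35.3 RPKM in wild type. The ZnF1 libraries stood far above the rest, and the ZnF4 and wild type ranges overlapped. The difference was 2.93 ± 0.20 for the ZnF1 mutant (limma, adjusted p = 0.00102) and -0.51 ± 0.20 for the ZnF4 mutant (adjusted p = 0.154), each against wild type. Cd36, a scavenger receptor and carrier of long-chain fatty acids, had 155.8 and 137.3 RPKM in the ZnF1 mutant and 15.4 and 33.6 RPKM in the ZnF4 mutant, against 11.9 and 22.1 RPKM in wild type. Its ZnF1 minus wild type difference was 3.09 ± 0.30 (limma, adjusted p = 0.00183), with 3.60 at day 28 and 2.58 at day 21. Between the ZnF4 mutant and wild type Cd36 differed by 0.46 ± 0.30 (95% interval -0.29 to 1.22, adjusted p = 0.355), and it passed the threshold there without the ZnF1 library of day 28 or of day 21, at adjusted p = 0.0444 and 0.0456. Of the 4 transcript rows of Cd36, the 3554-base row had the highest level and represents the gene here, and the 3582-base row was listed at 0 throughout. Together Apoe, Lpl and Cd36 made up 527.4 of the 660.7 RPKM of the 10 genes in the ZnF1 mutant at day 28.

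Fabp4, a cytosolic fatty acid carrier of adipocytes and macrophages, had 12.4 and 8.6 RPKM in the ZnF1 mutant and 0.6 and 0.8 RPKM in the ZnF4 mutant, against 0.9 and 1.9 RPKM in wild type. Only the ZnF1 libraries were clearly above 1 RPKM on both days. The difference was 2.27 ± 0.26 in the ZnF1 mutant (limma, adjusted p = 0.0027) and -0.47 ± 0.26 in the ZnF4 mutant (adjusted p = 0.282). Fabp5, the epidermal form of this carrier, behaved otherwise. It had 3.6 and 1.8 RPKM in the ZnF1 mutant and 1.7 and 1.3 RPKM in the ZnF4 mutant, against 1.8 and 1.6 RPKM in wild type. The ZnF1 library of day 28 was high and that of day 21 equalled the wild type library of day 28. The difference of 0.41 ± 0.17 between the ZnF1 mutant and wild type was not called (limma, adjusted p = 0.111, 95% interval -0.02 to 0.84). ZnF4 minus ZnF1 was -0.53 ± 0.17 (adjusted p = 0.0532), and turned on the ZnF1 libraries and the scaling. It was -0.80 without the ZnF1 library of day 21 (adjusted p = 0.0272) and -0.25 without that of day 28 (adjusted p = 0.29). With upper quartile scaling it passed at -0.53 (adjusted p = 0.0448), and with quantile scaling it was -0.19 (adjusted p = 0.354). Reads of Fabp5 are uncertain, because RefSeq lists a processed copy, Fabp5l2.

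Plin2 encodes the coat protein perilipin 2 of lipid droplets. It had 73.0 and 64.7 RPKM in the ZnF1 mutant and 12.7 and 13.9 RPKM in the ZnF4 mutant, against 16.2 and 22.3 RPKM in wild type. The genotypes did not overlap, and the order was that of Apoe. The ZnF1 mutant was higher than wild type by 1.80 ± 0.15 (limma, adjusted p = 0.00134). The ZnF4 mutant differed from wild type by -0.49 ± 0.15 (adjusted p = 0.0846), which did not pass.

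The 2 cholesterol exporters parted. Abca1, which loads cholesterol onto lipid-poor apolipoprotein A-I, had 16.7 and 19.2 RPKM in the ZnF1 mutant and 2.5 and 2.3 RPKM in the ZnF4 mutant, against 2.1 and 3.8 RPKM in wild type. The ZnF1 libraries stood apart and the ZnF4 values lay within the wild type range. The difference in the ZnF1 mutant was 2.29 ± 0.18 (limma, adjusted p = 0.00127), a ratio of 6.09. Abcg1, which passes cholesterol to high-density lipoprotein, had 15.9 and 14.3 RPKM in the ZnF1 mutant and 16.5 and 17.0 RPKM in the ZnF4 mutant, against 19.0 and 15.9 RPKM in wild type. All 6 values lay between 14.3 and 19.0 RPKM. The ZnF1 mutant differed from wild type by -0.19 ± 0.09 (95% interval -0.43 to 0.04, limma, adjusted p = 0.158) and the ZnF4 mutant by -0.05 ± 0.09 (95% interval -0.29 to 0.19, adjusted p = 0.756). In the ZnF4 mutant Abcg1 was the third highest of the 10 genes per length, at a mean of 16.75 RPKM, while in the ZnF1 mutant it was the sixth at 15.1 RPKM.

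Nr1h3 encodes LXRα. It had 5.6 and 4.9 RPKM in the ZnF1 mutant and 0.6 and 0.4 RPKM in the ZnF4 mutant, against 0.7 and 1.0 RPKM in wild type. The ZnF1 mutant was higher than wild type by 1.76 ± 0.14 (limma, adjusted p = 0.00129), and the ZnF4 mutant differed by -0.30 ± 0.14 (adjusted p = 0.214). Pparg encodes PPARγ. Its levels were 6.1 and 7.3 RPKM in the ZnF1 mutant and 1.3 and 0.7 RPKM in the ZnF4 mutant, against 0.3 and 0.9 RPKM in wild type. The ZnF1 libraries stood above the others, whose ranges overlapped. The differences were 2.29 ± 0.24 (limma, adjusted p = 0.00216) and 0.33 ± 0.24 (adjusted p = 0.405). Values near 1 RPKM carry a rounding step of 0.1 RPKM. Nr1h3, Pparg and Fabp4 passed the filter (1 RPKM in 2 libraries) only with the ZnF1 libraries. Thus 3 of the 8 higher calls there rest on genes that had to be high in them to be tested. The same holds for 3 of the 8 lower calls of the ZnF4 mutant against the ZnF1 mutant. The Pparg values are of the 1865-base row. The 1776-base row, whose start lies downstream at chr6:115422066 (GRCm38) and which in adipocytes gives the longer protein, was listed at 0 in all 6 libraries. The rows share most exons and the sources used here do not say how shared reads were assigned, so the 0 does not measure that transcript by itself.

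**Figure D2:**
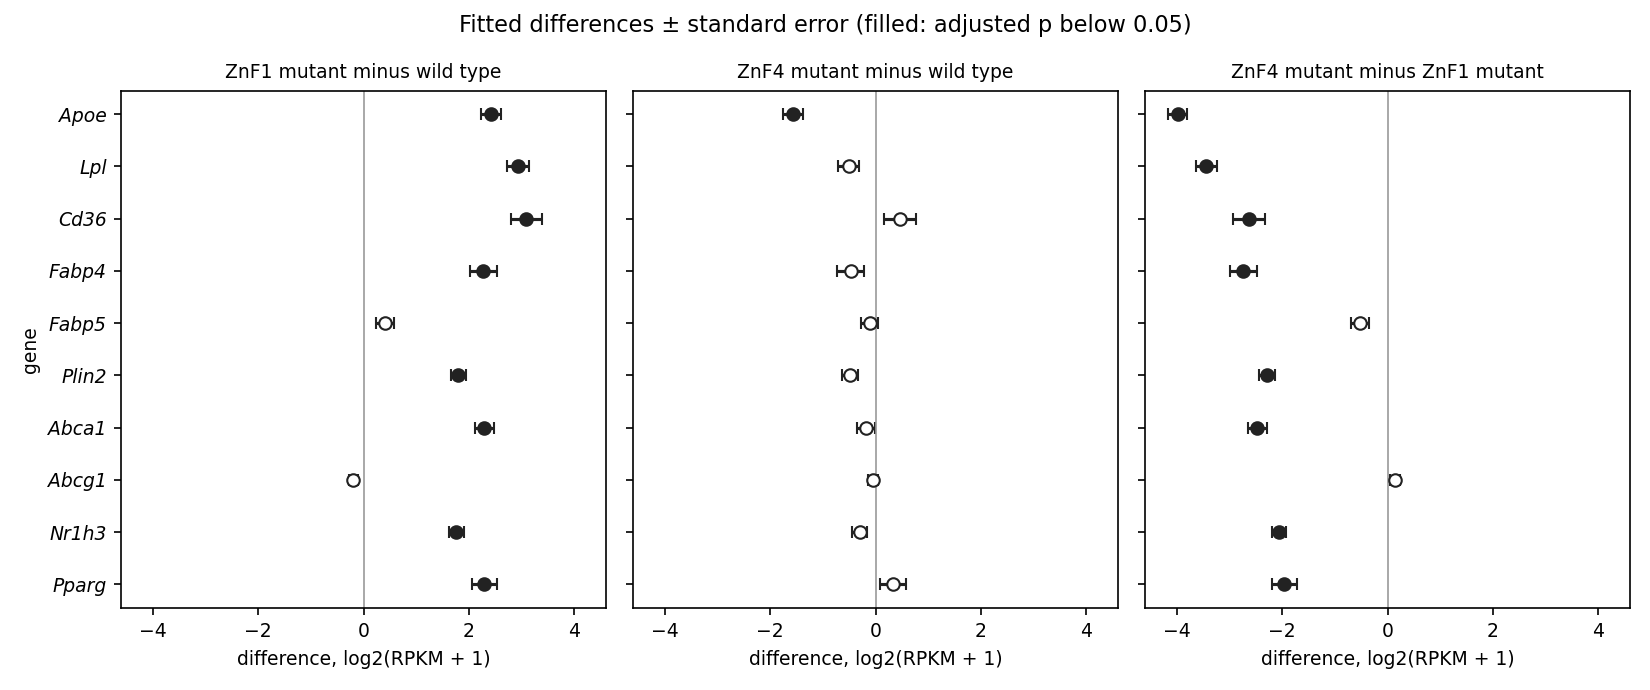
Fitted differences of the 10 genes on the log2(RPKM + 1) scale with standard errors (horizontal axis) for the ZnF1 mutant minus wild type, the ZnF4 mutant minus wild type and the ZnF4 mutant minus the ZnF1 mutant, filled where the adjusted p is below 0.05. In the first panel 8 points lie between 1.76 and 3.09, and in the middle panel Apoe at -1.57 is the filled one.

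Each of the 8 calls in the ZnF1 mutant was kept in every alternative in which the gene was tested. With 1 library left out, the highest adjusted p among them was 0.0361 (Cd36), and the differences ranged from 1.55 (Nr1h3) to 3.66 (Cd36). For day 28 against day 21 limma called 0 of the 10 genes and 0% of all tested genes, with 1631 of these at an unadjusted p below 0.05. The lowest adjusted p of the 10 genes was 0.311 (Lpl, -0.47 ± 0.16). The labels do not say whether the days of a genotype were separate cultures, so all p-values here measure the spread between these libraries only.

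Macrophage markers moved with the lipid genes. Over all tested genes, 22.9% were called higher in the ZnF1 mutant and 7.32% lower in the ZnF4 mutant, each against wild type. Of 18 macrophage markers 16 were tested and were called higher in the ZnF1 mutant, with a median difference of 2.21, and 13 to 16 were called when 1 library was left out. Among the 16 were 2 (Siglec1 and Cx3cr1, named after their values were seen) that passed the filter only through the ZnF1 libraries. With 1 library left out, 14 to 16 of the macrophage markers were tested. Against wild type, the ZnF4 mutant had 6 of the 16 called lower, with a median of -0.63, and between 0 and 3 when 1 library was left out. Their summed level was 2103.7 and 2198.4 RPKM in the ZnF1 mutant and 321.8 and 275.2 RPKM in the ZnF4 mutant, against 376.6 and 568.7 RPKM in wild type. No macrophage marker was at 0 in all 6 libraries, but Timd4 and Cd163 stayed below 1 RPKM in each. Of 9 adipocyte markers 7 (Lep, Retn, Pck1, Adrb3, Adig, Cidec and Plin1) were at 0 in every library, and none exceeded 0.1 RPKM. Of 11 stromal markers 9 were tested and called higher in the ZnF1 mutant (5 to 9 when 1 library was left out), but 4 of the 9 passed the filter only with the ZnF1 libraries. The sum of the 11 was 144.3 and 152.1 RPKM there and 15.8 and 19.3 RPKM in the ZnF4 mutant, against 24.1 and 35.8 RPKM in wild type. With 1 library left out, 7 to 9 of the stromal markers were tested. Granulocyte markers (10 genes) summed to 103.1 and 97.7 RPKM in the ZnF1 mutant and 35.6 and 9.4 RPKM in the ZnF4 mutant, against 14.7 and 13.9 RPKM in wild type. Platelet markers (7 genes) summed to 81.0 and 71.8 RPKM in the ZnF1 mutant and 21.2 and 14.1 RPKM in the ZnF4 mutant, against 30.5 and 26.0 RPKM in wild type. Dendritic cell markers (7 genes) summed to 16.6 and 14.3 RPKM in the ZnF1 mutant and 3.3 and 4.0 RPKM in the ZnF4 mutant, against 3.8 and 4.8 RPKM in wild type. Most genes of these 3 lists stayed below 1 RPKM in all 6 libraries (8 of 10, 6 of 7 and 5 of 7). Elane, Mpo and Ltf of the granulocyte list were at 0 throughout, and Mmp9 had the highest level there. The platelet sum rests mostly on Pf4, at up to 79.2 RPKM. The sums thus follow a few genes and do not measure the amount of a cell type. Few genes of these 3 lists were tested (2, 1 and 2), and each was called higher in the ZnF1 mutant than in wild type. Of the 2 granulocyte genes 1 passed the filter only with the ZnF1 libraries. Both granulocyte calls ended with no filter on low values and on leaving out wild type day 28. In bulk RNA, fewer cells of a type and less RNA per cell cannot be told apart, and the part of macrophages, stromal cells, granulocytes, platelets or dendritic cells in the lipid gene differences was not tested.

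Set against the summed macrophage markers, the lipid genes differed in pattern. Per 1000 RPKM of those markers, Plin2 stood at 34.7 and 29.4 in ZnF1 mutant cells and 39.5 and 50.5 in the ZnF4 mutant, against 43.0 and 39.2 in wild type, so that its ZnF1 values became the lowest. Abca1 stood at 7.94 and 8.73 in ZnF1 mutant cells and 7.77 and 8.36 in the ZnF4 mutant, against 5.58 and 6.68 in wild type. Apoe stood at 83.5 and 119 in ZnF1 mutant cells and 40.4 and 44.3 in the ZnF4 mutant, against 83.4 and 86.2 in wild type. Its ZnF4 values were the lowest on this scale too, and the ZnF1 value of day 28 was next to the wild type value. Cd36 stood at 74.1 and 62.5 in ZnF1 mutant cells and 47.9 and 122 in the ZnF4 mutant, against 31.6 and 38.9 in wild type. Lpl stood at 93.1 and 92.9 in ZnF1 mutant cells and 46.6 and 74.1 in the ZnF4 mutant, against 48.1 and 62.1 in wild type. Pparg stood at 2.9 and 3.32 in ZnF1 mutant cells and 4.04 and 2.54 in the ZnF4 mutant, against 0.8 and 1.58 in wild type. Nr1h3 stood at 2.66 and 2.23 in ZnF1 mutant cells, against 1.86 and 1.76 in wild type. Fabp4 stood at 5.89 and 3.91, against 2.39 and 3.34. Cd36, Lpl, Pparg, Abca1, Nr1h3 and Fabp4 thus stayed above both wild type values in the ZnF1 mutant on this scale. Cd36, Pparg and Abca1 did so in the ZnF4 mutant as well. Fabp5 was below both wild type values in the ZnF1 mutant, at 1.71 and 0.82 against 4.78 and 2.81. Abcg1 stood at 7.56 and 6.5 in ZnF1 mutant cells and 51.3 and 61.8 in the ZnF4 mutant, against 50.4 and 28.0 in wild type. Its own level lay between 14.3 and 19.0 RPKM in all 6 libraries, so that this ratio follows the marker sum. Of the 18 markers Lyz2 had the highest level, up to 927.8 RPKM. These ratios are a description and were not tested, and no share over all tested genes was computed for them.

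**Figure D3:**
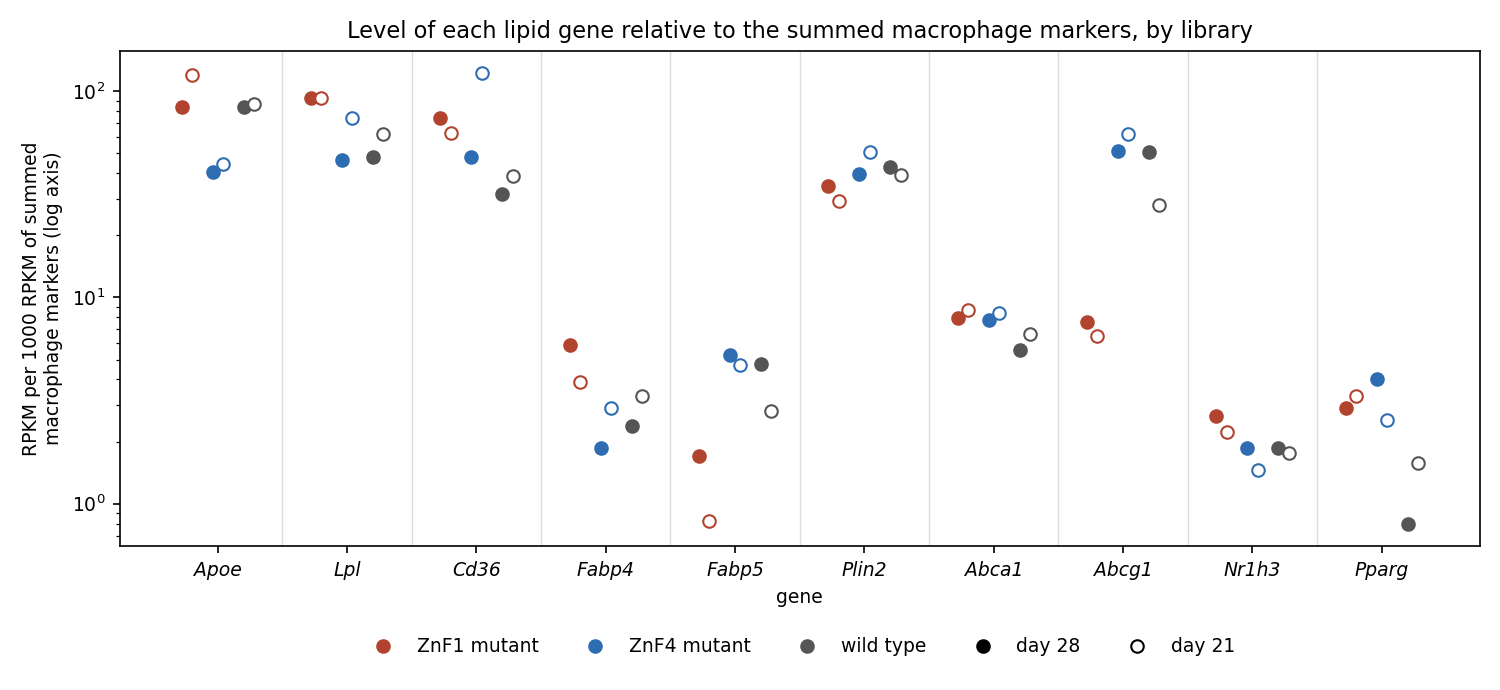
Level of each gene per 1000 RPKM of the summed macrophage markers (log axis) in the ZnF1 mutant, the ZnF4 mutant and wild type, filled at day 28 and open at day 21. Plin2 lies between 29.4 and 50.5 and Abca1 between 5.58 and 8.73 over all 6 libraries, and Apoe is lowest in the ZnF4 mutant at 40.4 and 44.3. Abcg1 is lowest in the ZnF1 mutant at 7.56 and 6.5, where the marker sum is highest and its own RPKM is nearly level.

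By profile over the 6 libraries (root mean square distance between centred log2(RPKM + 1) values, 11378 genes ranked), the genes closest to Apoe were 4632428N05Rik at 0.212, Nov at 0.228 and the complement gene C1qc at 0.245. Lpl was closest to Cd5l at 0.109, C3ar1 at 0.193 and Bgn at 0.199. Cd36 was closest to Pygl at 0.204, Hdac11 at 0.316 and Efemp1 at 0.36. The genes nearest to Abca1 were Sdc3 at 0.093, Folr2 at 0.111 and Fn1 at 0.115. Among the lipid genes, Lpl was at 0.376 from Fabp4 and at 1.63 from Abcg1.

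Beyond the 10 genes, 135 further genes of lipid handling were listed by role, of which 92 were tested. In the ZnF1 mutant 36 of the 92 were called higher and 9 lower (39.1% and 9.8%, against 22.9% and 15.2% of all tested genes), a median difference of 0.21. Of the 92, 8 passed the filter only with the ZnF1 libraries, among them Apoc2, Cd5l, Mertk, Pdk4 and Fabp7, described below. Leaving out 1 library gave 21 to 38 higher and 0 to 11 lower. For the ZnF4 mutant 11 were higher and 9 lower (12.0% and 9.8%, near the 10.9% and 7.32% of all tested genes), with a median of -0.05, and 10 were higher and 16 lower with quantile scaling. Leaving out 1 library gave 2 to 11 higher and 0 to 11 lower.

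Receptors that internalise lipoproteins and modified proteins were among the genes that rose in the ZnF1 mutant, with 9 of 13 tested higher and 1 lower. Of all tested genes, 22.9% were called higher and 15.2% lower there, and 10.9% and 7.32% in the ZnF4 mutant. Among the 13 receptors, 1 passed the filter only with the ZnF1 libraries. Colec12, a collectin scavenger receptor, had 28.3 and 26 RPKM in the ZnF1 mutant and 2 and 1.7 RPKM in the ZnF4 mutant, against 2 and 2.9 RPKM in wild type. Lrp1, which takes up Apoe-bearing remnants, differed from wild type by 2.34 ± 0.17 and Msr1, a scavenger receptor for modified lipoproteins, by 2.02 ± 0.17 (limma, adjusted p = 0.00115 and 0.00139). The ZnF4 mutant had 4 of these 13 higher and 2 lower (1 to 4 and 0 to 2 when 1 library was left out). Vldlr, a lipoprotein receptor, had 2.3 and 2.6 RPKM there, against 0.1 and 0.2 RPKM in wild type, a difference of 1.58 ± 0.10 (limma, adjusted p = 0.00114).

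Of the 12 tested LXR targets other than the 10 genes, 6 rose and 2 fell in the ZnF1 mutant. Over all tested genes 22.9% were called higher and 15.2% lower. Those with the lowest p were Mertk (1.82 ± 0.15), which binds dying cells for engulfment, the apolipoprotein Apoc2 (1.18 ± 0.10), Smpdl3a (2.38 ± 0.21) and Cd5l (2.90 ± 0.27). Mertk, Apoc2 and Cd5l passed the filter only with the ZnF1 libraries. Thus 3 of the 6 rises rest on genes that had to be high in those libraries to be tested. The 2 that fell, named after their values were seen, were the desaturase gene Scd2 (-0.89 ± 0.16) and the lipogenic regulator Srebf1 (-0.45 ± 0.09), and both calls ended on leaving out wild type day 28, ZnF1 day 28 or ZnF1 day 21 (highest adjusted p 0.0853 and 0.145). PPAR targets were divided, with 4 of 17 higher and 4 lower, a share of higher calls near the 22.9% of all tested genes. With 1 library left out, 0 to 6 were higher and 0 to 4 lower, and none was higher when either ZnF1 library was left out. Pdk4, which restrains glucose oxidation, differed by 1.39 ± 0.12. It passed the filter only with the ZnF1 libraries and was not tested when either was left out. Its call was kept in every alternative in which it was tested. Over all tested genes, 7.32% were called lower in the ZnF4 mutant than in wild type. In the ZnF4 mutant 3 of the 17 fell (Ech1, Acaa2 and Cpt1a), all enzymes of fatty acid oxidation, and each call was lost without at least 1 library (adjusted p up to 0.0842, 0.154 and 0.244).

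Rxra, a dimer partner of LXR and PPARγ, had another pattern than Nr1h3 and Pparg. It had 6 and 6.7 RPKM in the ZnF1 mutant and 7.4 and 7.4 RPKM in the ZnF4 mutant, against 2 and 2.4 RPKM in wild type. Rxra was higher than wild type by 1.20 ± 0.09 in the ZnF1 mutant (limma, adjusted p = 0.00127) and by 1.40 ± 0.09 in the ZnF4 mutant (adjusted p = 0.00141), and both calls were kept when 1 library was left out. Nr1h3 and Pparg were called higher only in the ZnF1 mutant. Their ZnF4 minus ZnF1 differences were -2.06 ± 0.14 and -1.96 ± 0.24 (limma, adjusted p = 0.000561 and 0.00245). Both genes had to be high in the ZnF1 libraries to be tested, so these calls do not test a contrast with Rxra.

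Storage and lysosomal genes completed the list. Their counts stand beside 22.9% of all tested genes called higher and 15.2% called lower in the ZnF1 mutant. Among the sterol-handling genes tested, 1 passed the filter only with the ZnF1 libraries. Of 13 droplet genes tested, 5 rose and none fell in the ZnF1 mutant, among them the seipin gene Bscl2 (1.07 ± 0.08), the lipase activator Abhd5 (1.24 ± 0.10), the cholesteryl ester hydrolase Nceh1 (1.40 ± 0.11) and Soat1 (1.26 ± 0.12), which esterifies cholesterol. Of 14 sterol-handling genes tested, 6 rose and 1 fell there, the sterol carrier Stard4 (-0.54, named after its value was seen), a call that ended on leaving out any of the wild type or ZnF1 mutant days (highest adjusted p 0.211). The lysosomal acid lipase Lipa had 127.9 and 120.5 RPKM in the ZnF1 mutant and 21.4 and 22.4 RPKM in the ZnF4 mutant, against 23 and 32.6 RPKM in wild type. Npc1, a lysosomal cholesterol exporter, was higher by 0.99 ± 0.09 in the ZnF1 mutant (limma, adjusted p = 0.00173) and lower by -0.69 ± 0.09 in the ZnF4 mutant (adjusted p = 0.00882). That second call ended when either wild type or either ZnF4 library was left out (adjusted p up to 0.118). Among the other fatty acid carriers 3 of 7 tested rose in the ZnF1 mutant, Slc27a1 (1.16 ± 0.22), Fabp7 (1.11 ± 0.12) and Slc27a4 (0.58 ± 0.10). The count was 0 without the ZnF1 library of day 28 and 1 without that of day 21, and Fabp7 was not tested in either case. The Slc27a1 call ended without ZnF1 day 28 and with no filter (highest adjusted p 0.0889), and the Slc27a4 call ended with quantile scaling and when either ZnF1 or either wild type library was dropped (highest adjusted p 0.106). Of the 3 lipase partners tested, Sel1l was higher by 0.22 ± 0.07, a call that ended without the block on day, with a mean RPKM of at least 4, with upper quartile scaling, with the mean over all transcript rows and on leaving out any of the wild type or ZnF1 mutant days (highest adjusted p 0.27).

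**Figure D4:**
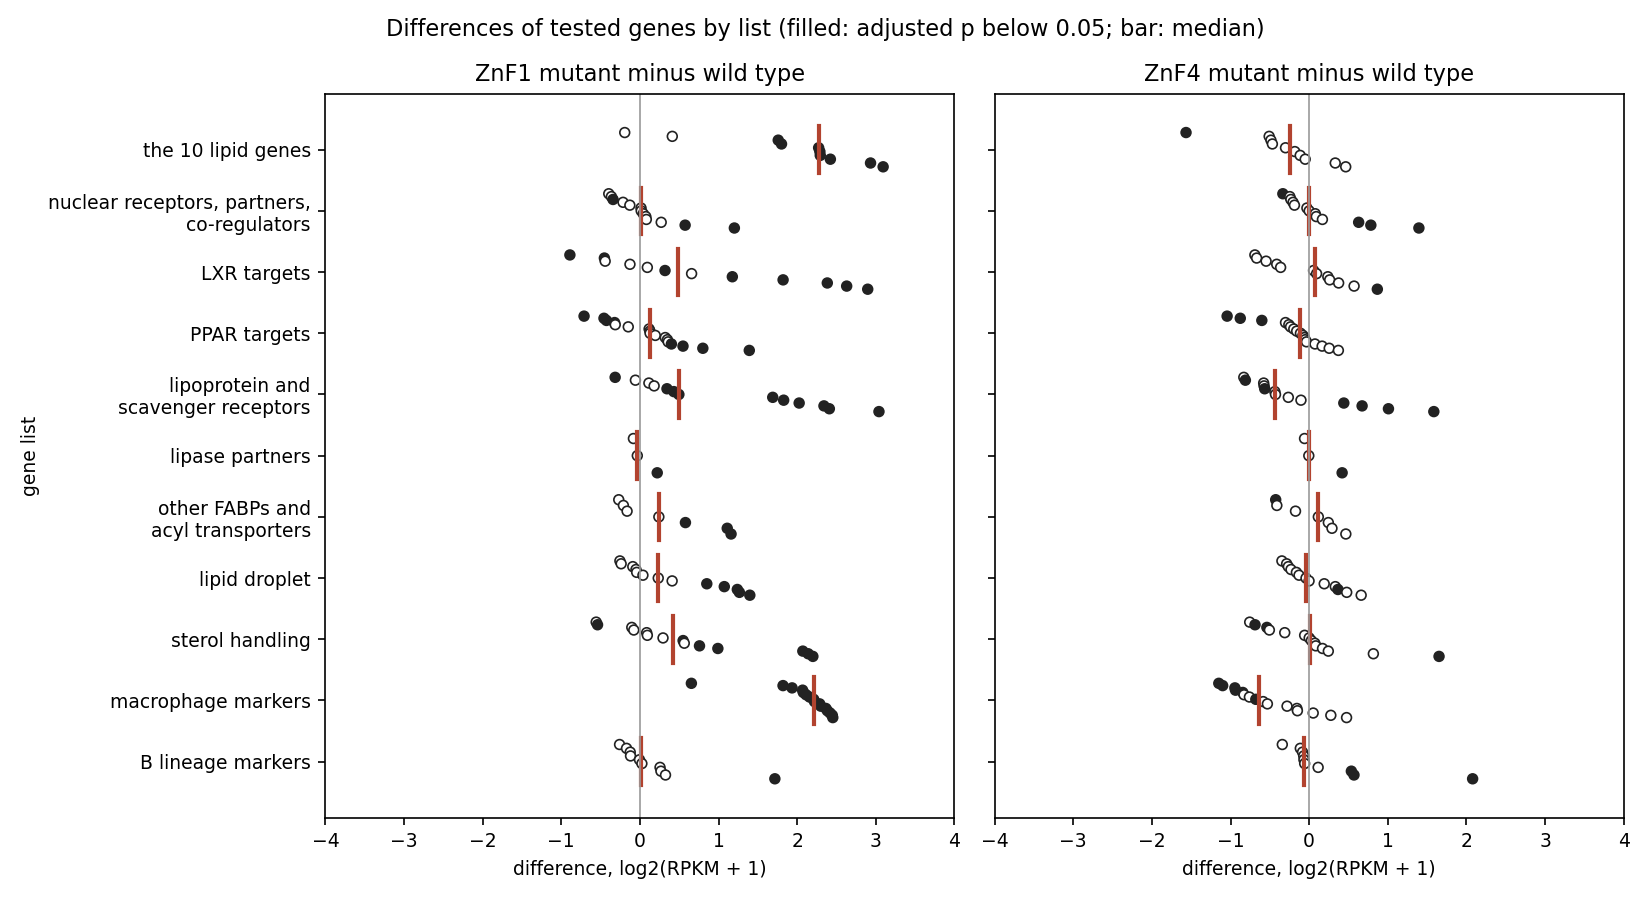
Differences of all tested genes of each list on the log2(RPKM + 1) scale for the ZnF1 mutant minus wild type and the ZnF4 mutant minus wild type, filled where the adjusted p is below 0.05, with a bar at the list's median. The 10 lipid genes and the macrophage markers have medians of 2.28 and 2.21 in the ZnF1 panel, and the medians of the other lipid lists lie between -0.03 and 0.50.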

How the data were processed

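Poly(A) RNA of 6 libraries was sequenced after fragmentation of double-stranded cDNA, per the labels' protocols, and no strand-marking step is named, so reads of overlapping antisense genes cannot be told apart. TopHat, bedtools and the build mm9 were used, per the submitters' processing notes. The authors deposited RPKM, reads scaled by the length of the transcript and the number mapped, rounded to 1 decimal, for 26531 transcript rows. A row that names no gene (1) was dropped. RPKM gives no depth, so no counting interval can be given, and n = 2 per genotype limits the precision. No column of another sample was present.

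The row with the highest mean stood for a gene. Values were taken as log2(RPKM + 1), which understates the change of low genes, and genes with at least 1 RPKM in at least 2 of the 6 libraries were tested. Genotype and day were fitted with limma (3.58.1, under R 4.3.3) and a mean-variance trend. Day is the replicate number and a block given by the labels. Changes between the days correlated across genes between the genotypes at 0.433, 0.249 and 0.226 (ZnF1 mutant and wild type, ZnF4 mutant and wild type, both mutants). In a simulation of ZnF1 mutant minus wild type (10475 genes), 68% of genes changed by 1 and 94% of genes changed by 2 on the log2 scale were recovered. The changed genes, 100 of each size, were drawn from those with a wild type mean log2(RPKM + 1) above 2, and no day effect was simulated. Abca1, Nr1h3, Pparg, Fabp4 and Fabp5 lie below that level in wild type, so these rates do not cover them. Of the unchanged genes 0.049% were called. In the data 38.1% of tested genes were called, a far larger share than was changed in the simulation. The adjusted p depends on that share, so the rates describe the simulation only.

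The 10 genes and all lists were chosen with earlier results of these data known. Named were the 10 genes, up to 4 genes of each list with the smallest p, Ikzf1, and the 3 genes closest in profile to Apoe, Lpl, Cd36 and Abca1. Alternatives were no block, other filters, a pseudocount of 0.1, quantile and upper quartile scaling, the mean over all rows, and leaving out each library. Promoter windows are RefSeq's (GRCm38.p6). Some genes of the lists are not reported here by name.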

Additional observations from a re-analysis of the deposited data

Results flagged for a closer look

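Changes from one day to the other (day 28 minus day 21, log2(RPKM + 1)) pointed in opposite directions in different genotypes for 8 of the 10 genes. With 1 library per genotype and day these differences were not tested. Changes of 0.15 RPKM or less were not compared, because the values are rounded to 0.1 RPKM. Some changes lie just above that limit, as for Nr1h3 and Fabp4 in the ZnF4 mutant. The share of all tested genes with such a pattern was not computed, so the count is not shown to be particular to these 10. Apoe changed by -0.57 in ZnF1 cells and 0.08 in ZnF4 cells, against -0.63 in wild type. Cd36 changed by 0.18 in ZnF1 cells and -1.08 in ZnF4 cells, against -0.84 in wild type. Abca1 changed by -0.19 in ZnF1 cells and 0.08 in ZnF4 cells, against -0.63 in wild type. For Abcg1 the changes were 0.14 in ZnF1 cells and -0.04 in ZnF4 cells, against 0.24 in wild type. For Pparg they were -0.23 in ZnF1 cells and 0.44 in ZnF4 cells, against -0.55 in wild type. Nr1h3 changed by 0.16 in ZnF1 cells and 0.19 in ZnF4 cells, against -0.23 in wild type. Fabp4 changed by 0.48 in ZnF1 cells and -0.17 in ZnF4 cells, against -0.61 in wild type. Plin2 changed by 0.17 in ZnF1 cells and -0.12 in ZnF4 cells, against -0.44 in wild type.

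The difference between the ZnF4 mutant and wild type also changed sign with the day for 3 genes, again untested and with no share over all tested genes computed. It was 0.18 at day 28 and -0.54 at day 21 for Abca1, -0.19 at day 28 and 0.09 at day 21 for Abcg1, and 0.82 at day 28 and -0.16 at day 21 for Pparg.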

How the results depend on the processing

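The 8 calls among the 10 genes in the ZnF1 mutant against wild type, and the 8 in the ZnF4 mutant against the ZnF1 mutant, kept their direction and passed in each alternative in which the gene was tested. With a mean RPKM of at least 4, Pparg, Nr1h3 and Fabp5 were not tested, and 6 calls were left in each. Without the replicate block on day the counts stayed at 8, 1 and 8 (ZnF1 mutant against wild type, ZnF4 mutant against wild type, ZnF4 against ZnF1 mutant). The day comparison has no such fit. It gave 0 calls in the alternatives run. The count for the ZnF4 mutant against wild type was 0 with no filter and 0 to 2 with 1 library left out, where the lone library of a genotype is assumed to vary like the others.

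Directions turned only for uncalled differences and only with 1 library left out. In the ZnF4 mutant against wild type the values then ranged over -0.472 to 0.106 (Abca1, with 0.065 without the ZnF4 library of day 21), -0.298 to 0.0688 (Fabp5), -0.168 to 0.0661 (Abcg1, with 0.0449 once wild type day 28 was left out) and -0.0799 to 0.743 (Pparg). For day 28 against day 21 they ranged over -0.386 to 0.105 (Pparg), -0.39 to 0.156 (Fabp4), -0.28 to 0.0252 (Plin2) and -0.0364 to 0.177 (Nr1h3, with -0.0209 without either ZnF1 library). The cause was not tested. The unknown depth and the rounding limit Nr1h3, Pparg, Fabp4 and Fabp5 most, since their values lie near 1 RPKM outside the ZnF1 mutant.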
